A study of Mus musculus with 10 samples.

Results

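Bladder tissue from wild type (WT) C57BL/6 mice is described here by the 4 sequenced samples that carry this label, out of 10 in the series. The other 6 samples, 3 from OMD-/- and 3 from PRELP-/- mice, were not used. The 4 were taken by their genotype label, and no contrast with a knockout was made. All 4 carry no allele change and no treatment by their labels, which give neither age, sex nor how many animals went into a sample. GEO describes excised and homogenised bladder, whereas the paper speaks of isolated bladder epithelium. Polyadenylated RNA was sequenced with a kit that keeps strand, and reads were counted per gene.

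The bladder wall holds a layered epithelium, the urothelium, over connective tissue with vessels and nerves and an outer muscle, the detrusor. Superficial umbrella cells line the lumen and carry plaques of uroplakin proteins, which make the surface impermeable to urine, and basal cells rest on the basement membrane and renew the layer. Genes of each compartment were therefore read side by side: 28 lists with 255 different genes cover urothelium, stroma, muscle, vessel, immune cells, other tissues and cell states. Of these genes, 216 had more than 3 counts in all 4 samples, 15 had at most 3 counts in each of the 4, and 212 (83.1%) reached a mean counts-per-million (CPM) value of at least 1.

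Each file listed 55536 genes. Totals were 46269079 counts in replicate 1 and 21342576, 20627625 and 20391437 in replicates 2 to 4. More than 3 counts in each of the 4 samples were found for 17324 genes, and 14772 genes had a mean of at least 1 CPM, of which 13166 were protein coding. The 1148 highest genes held 50% of the counts. Replicate 1, with the most counts, had the fewest genes with any count (21863 against 24266, 25448 and 25776). In replicate 1, 302 genes were at 0 while above 3 counts in all other samples, against 48, 15 and 25 such genes in replicates 2 to 4. A 0 in replicate 1 is thus a weaker sign of absence than its depth would give, and the reason was not tested. Replicates differ from one another in ways the labels do not give. The Y-linked genes summed to 211 and 179 CPM in replicates 1 and 2 and to 1.60 and 1.18 CPM in replicates 3 and 4, and Xist, the RNA of the silenced X, ran the other way with 2.31, 6.04, 1116 and 1358 CPM. These sex-linked genes move with every difference below that sets replicates 1 and 2 apart from 3 and 4, and the labels offer no sex or batch by which to separate them, so their part in those differences was not tested. Nothing in the labels says that samples came from separate animals, and the paper gives fewer WT mice than there are WT samples here. With Y-linked transcripts in replicates 1 and 2 and almost none in 3 and 4, the 4 are not all repeats of 1 animal. Whether 1 and 2, or 3 and 4, are repeats of each other is not known. SDs with n = 4 are therefore the spread between these samples, part of which may be technical.

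The labelled tissue was first set against its markers. Levels of different genes are compared as transcripts-per-million (TPM) values, which are counts per kb of exon scaled to the same total in each sample. That total includes Gm23935, a gene of 57 bases, with 11457, 27859, 57316 and 56574 TPM in replicates 1 to 4. Its share lowers the TPM of every other gene more in replicates 3 and 4. Differences in TPM between samples carry this limit, which CPM values hardly share. The 10 umbrella genes summed to 28545, 28463, 29644 and 29339 TPM, and the 20 contractile genes of smooth muscle to 1161, 1124, 2608 and 2451 TPM. Smooth muscle thus reached 4.07%, 3.95%, 8.80% and 8.35% of the umbrella sum (6.29% ± 2.64, SD, n = 4). Summed as CPM, without regard to length, it reached 11.6%, 11.2%, 21.9% and 20.8%. By both readings the umbrella sum was above the smooth muscle sum in every sample. Smooth muscle genes were present in every sample, and the highest of their 4 TPM sums was 2.32 times the lowest. Members of that list ranged from nearly level (Smtn and Srf) to 14.0 times (Cnn1), as given below, so the sum is no measure of muscle alone. In bulk RNA, fewer cells of a type and less RNA per cell cannot be told apart. The samples hold no whole bladder of known make-up to read the ratio of smooth muscle to umbrella genes against.

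The highest gene by counts was Gstm1 (ENSMUSG00000058135), a glutathione S-transferase that joins glutathione to reactive compounds. It had 15309.6, 15436, 14998 and 12956 CPM in replicates 1 to 4 (14675 ± 1161, SD, n = 4), which is 31831 ± 3883 TPM. Its level was above that of every uroplakin in every sample. Gsta4, of the same family and active on products of lipid peroxidation, was the 7th gene by CPM with 7091 ± 827 TPM. Fmo5, a flavin-containing monooxygenase that oxidises foreign compounds, was the 4th with 4850.3 ± 291 CPM.

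The families of these genes were looked up after their values were seen. Of 25 glutathione S-transferase genes, 24 reached 1 CPM, and the family summed to 43719 ± 4782 TPM. Gstm1 and Gsta4 held most of it, followed by Gsto1 (1422 ± 153 TPM), Mgst1 (929 ± 117 TPM) and Mgst3 (718 ± 32.5 TPM). Fmo5 held nearly all of the 2805.6 ± 109 TPM of the 7 flavin-containing monooxygenases, since Fmo2 had 69.2 ± 4.17 TPM and Fmo1 16.7 ± 0.785 TPM. Among 20 aldehyde dehydrogenases, which oxidise aldehydes to acids, Aldh3a1 led with 895 ± 195 TPM and Aldh3b2 followed with 428 ± 28.6 TPM. In each family the sum thus rested mainly on 1 or 2 genes.

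Barrier and squamous-type proteins made another part of the top. Sprr1a, a small proline-rich protein of the cornified envelope, had 8850.1, 9347, 8701 and 7686 TPM in replicates 1 to 4. Of 12 genes of that family, Sprr2a3 was next with 396 ± 23.4 TPM and Sprr1b had 0 counts. The nearly identical Sprr2a copies share sequence, so the split between them is uncertain. S100a6, a calcium-binding protein, had 6278 ± 211 TPM, and Ly6d and Psca, small proteins anchored to the outer membrane, had 6007 ± 454 and 3852 ± 294 TPM. Of these, only the 4 values of S100a6 and Ly6d overlapped each other.

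**Figure D1:**
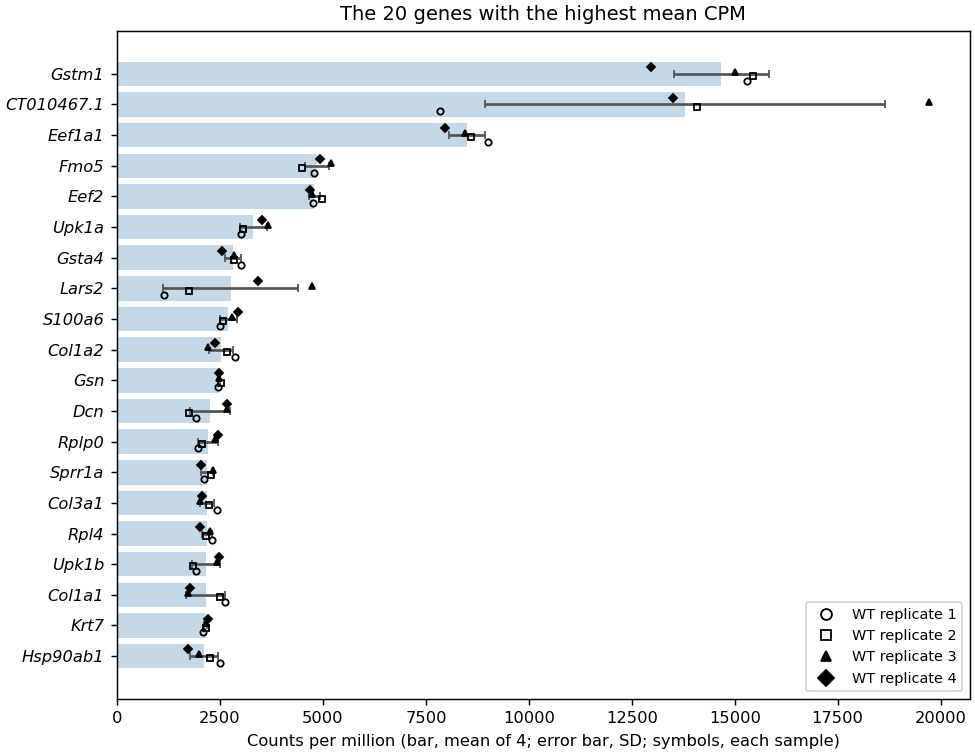
Level in CPM (horizontal axis, from 0) of the 20 genes with the highest mean. Bars are means of 4 WT samples, error bars their SD, and symbols the samples. Gstm1 leads with 14675 CPM, and Lars2 and the ribosomal RNA gene CT010467.1 show the widest spread.

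Among the other leading genes, elongation factors Eef1a1 and Eef2 had 8508 ± 435 and 4790.2 ± 133 CPM, and the ribosomal proteins Rplp0 and Rpl4 had 2216 ± 239 and 2182 ± 123 CPM. Per length, Rplp1, Rps15, Rps3a1 and Rps27 also stood among the first 20, with means from 3699.5 to 5595 TPM. Tmsb4x, which binds actin monomers, had 4743 ± 233 TPM, and the chaperone Hsp90ab1 had 2116 ± 338 CPM. Matrix genes of the stroma were in the first 20 by CPM as well: Col1a2, Gsn, Dcn, Col3a1 and Col1a1, with means from 2152 to 2533 CPM.

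The starts of 2 of the leading genes and of a uroplakin are shown as examples, each with a match. They are RefSeq promoters, 250 bases before to 50 after the start (GRCm38.p6), read along the gene's strand. Capitals mark TATAAA or GGGCGG on either strand.
Gstm1, chr3:108017769-108018068, minus strand: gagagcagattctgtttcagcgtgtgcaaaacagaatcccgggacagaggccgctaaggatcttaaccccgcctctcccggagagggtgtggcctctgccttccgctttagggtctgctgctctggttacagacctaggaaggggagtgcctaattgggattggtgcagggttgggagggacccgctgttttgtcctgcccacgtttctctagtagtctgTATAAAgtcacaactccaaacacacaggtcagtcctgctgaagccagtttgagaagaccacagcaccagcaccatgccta
Sprr1a, chr3:92485832-92486131, minus strand: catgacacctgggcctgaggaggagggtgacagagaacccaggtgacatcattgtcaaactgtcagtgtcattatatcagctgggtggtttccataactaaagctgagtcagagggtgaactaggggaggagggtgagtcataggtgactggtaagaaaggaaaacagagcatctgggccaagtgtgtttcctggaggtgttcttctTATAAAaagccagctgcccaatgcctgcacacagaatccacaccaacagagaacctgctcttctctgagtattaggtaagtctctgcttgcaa
Upk3a, chr15:85016891-85017190, plus strand: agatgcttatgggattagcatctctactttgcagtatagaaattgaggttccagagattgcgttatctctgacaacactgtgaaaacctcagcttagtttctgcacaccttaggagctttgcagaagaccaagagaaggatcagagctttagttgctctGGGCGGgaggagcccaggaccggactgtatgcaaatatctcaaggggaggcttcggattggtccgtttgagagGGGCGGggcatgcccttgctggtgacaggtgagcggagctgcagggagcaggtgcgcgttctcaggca
TATAAA began 30 bases before the start of Gstm1 and 43 bases before that of Sprr1a, and Upk3a held GGGCGG 91 and 18 bases before its start. The other RefSeq start of Gstm1 had neither, nor did the start of Upk1a, the highest uroplakin. Over all 32851 promoters, 13.6% held TATAAA and 35.7% held GGGCGG. Among promoters of genes with a mean of at least 1 CPM the shares were 7.33% and 60.6%, and among 83 promoters matched to the 100 highest protein-coding genes per length they were 16.9% and 56.6%. A match is a run of letters and no evidence of binding.

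The lists were ordered by their summed TPM. Umbrella genes came first with 28998 ± 585 TPM, followed by fibroblast and matrix genes with 8667 ± 776 TPM and basal genes with 4976 ± 828 TPM. These SDs depend on the scaling. With ribosomal RNA genes and genes under 200 bases left out of the total, the SD of the umbrella sum was 1753 TPM. With TMM library sizes (edgeR), the SD was 2233 for umbrella and 278 for fibroblast and matrix genes, so which list is steadier is not settled. The 4 values of each of these lists lay clear of the next. Epithelial junction genes came next with 3305 ± 261 TPM. From the small leucine-rich proteoglycans (2861 ± 109 TPM) down, most neighbours overlapped, so that the order of, for example, smooth muscle (1836 ± 804 TPM) and major histocompatibility complex (MHC) class II (1346 ± 34.1 TPM) is not clear of the spread. The order depends on reading levels per length. Summed as CPM, fibroblast and matrix genes, which include long collagen transcripts, came first by their mean while overlapping umbrella genes, with 16519, 15641, 14838 and 14948 against 14354, 14584, 16460.4 and 16172 CPM for umbrella genes.

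**Figure D2:**
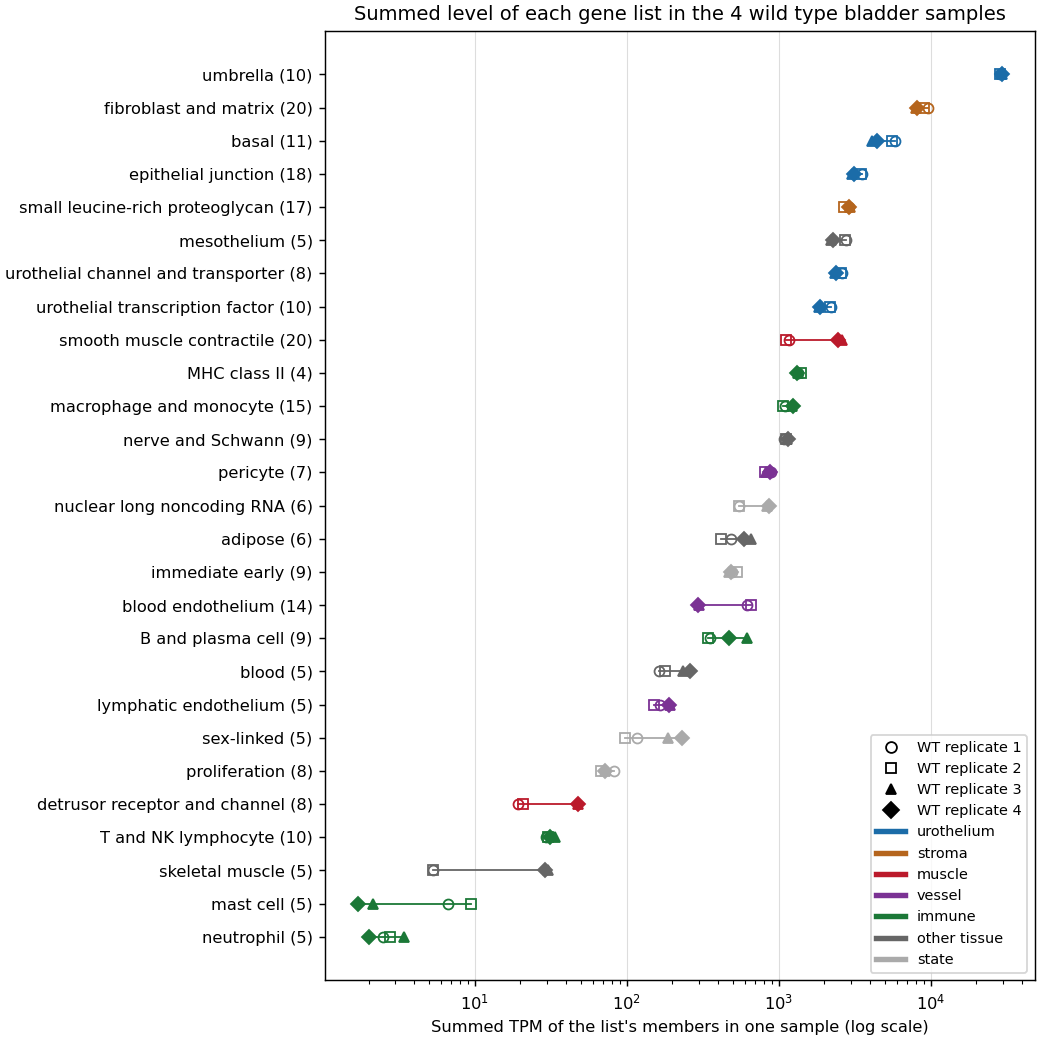
Summed TPM (horizontal axis, log scale) of each list in each WT sample, with the number of genes in brackets. Symbols are samples, lines join the lowest and highest, and colours mark compartments. The male accessory gland list, with 1 count in all, is left out. Umbrella genes are highest, and smooth muscle and blood endothelium split the samples in opposite directions.

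All 10 umbrella genes were above 3 counts in all 4 samples. Upk1a led with 7168, 7109, 7758 and 7571 TPM, followed by Upk3a with 5295, 5644, 5851 and 5948 TPM. Upk2 (3388 ± 143 TPM) and Upk1b (3282 ± 331 TPM) overlapped, and these 4 are the uroplakins that pair up in the plaques. Upk3b, a relative of Upk3a, was far lower with 522 ± 33.7 TPM. The simple-epithelium keratins followed the order Krt18 (3797 ± 84.6 TPM), Krt19 (1970.2 ± 324 TPM), Krt8 (1589.8 ± 40.9 TPM) and Krt7 (972 ± 43.8 TPM), with no overlap between neighbours. Krt20, a keratin of fully differentiated umbrella cells, was the lowest with 391 ± 18.7 TPM.

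Basal genes were fewer in transcripts and less even. Krt15 had 3230.1, 3048, 2386 and 2529.6 TPM and Krt5, the keratin that defines basal cells, 1840.3, 1783, 1157 and 1278 TPM. Replicates 1 and 2 were above 3 and 4 for both. Shh, the hedgehog ligand that urothelial cells send to the stroma, had 197 ± 17.6 TPM, and Trp63, the transcription factor of basal epithelial cells, 139 ± 20.3 TPM. The adhesion genes Itgb4, Lamb3, Cd44 and Itga6 lay between 53.7 and 86.8 TPM, each overlapping the next. Col17a1, which anchors basal cells through hemidesmosomes, had 82.4, 84.2, 37.2 and 37.7 CPM. Krt14, a keratin of stratified epithelia, had only 18, 7, 12 and 13 counts, and Krt17 had 0 counts in all 4, where 3 counts would be 0.0648 to 0.147 CPM.

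**Figure D3:**
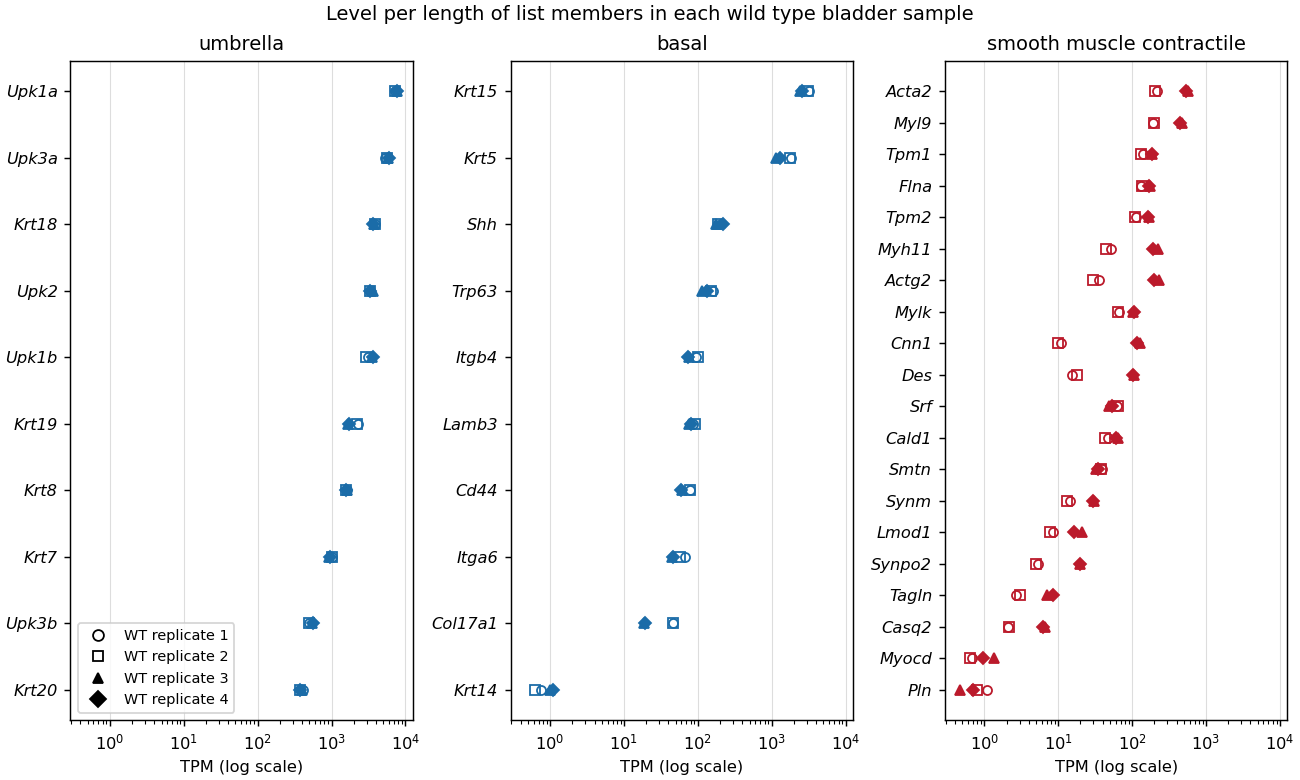
TPM (horizontal axis, log scale) of the members of the umbrella, basal and smooth muscle lists, by sample. Symbols are the 4 WT samples, and genes are ordered by mean. Umbrella genes stay close together, whereas Cnn1, Actg2, Des and Myh11 split replicates 1 and 2 from 3 and 4. Values of 0 and Krt17 are not drawn.

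Transcription factors of the urothelium were all measured, from Gata3 at 416, 402, 322 and 322 TPM down to Ovol1 at 16.2 ± 0.651 TPM. Foxa1 (316 ± 34.5 TPM), Grhl3 (291 ± 35.8 TPM), Ehf (231 ± 21.1 TPM) and Pparg (218 ± 8.72 TPM) followed Gata3, each overlapping the next. Grhl3 drives umbrella cell differentiation and Pparg acts with Foxa1 and Gata3 in luminal identity. Grhl2, the relative of Grhl3, was at 35.6 ± 8.64 TPM.

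Among 18 junction genes, Cldn4, a claudin of tight junctions, led with 835 ± 24.6 TPM, ahead of the adherens junction cadherin Cdh1 (495 ± 71.2 TPM) and F11r (324 ± 41.0 TPM). Cldn8 was higher in replicates 3 and 4, with 126, 118, 174 and 227 CPM. Desmosomal Dsp had 516, 509, 304 and 278 CPM, so replicates 1 and 2 lay above 3 and 4. Pkp1 was low at 25.7 ± 8.66 TPM, and Cldn3 had 18, 2, 2 and 10 counts. Of channels and transporters, the water and glycerol channel Aqp3 had 1972, 1978, 1817 and 1853 TPM and made up 76.8% of its list. The urea transporter Slc14a1 had 231 ± 21.2 TPM. Sodium channel subunits were uneven, with Scnn1g at 149 ± 15.0 TPM, Scnn1b at 50.7 ± 5.22 TPM and Scnn1a at 6.31 ± 0.705 TPM. Of the stretch channels, Piezo1 had 29.3 ± 7.03 TPM and Piezo2 1.09 ± 0.210 TPM.

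All 20 stromal genes were above 3 counts in every sample. Gsn, an actin-severing protein that many cell types make, led with 2503 ± 148 TPM, followed by the collagen-binding proteoglycan Dcn. Dcn had 1919, 1753, 2669 and 2664 CPM and Col1a1, the main collagen I chain, 2632, 2491, 1714 and 1769.7 CPM, so both set replicates 1 and 2 apart from 3 and 4, in opposite directions. Sparc, a matrix glycoprotein, had 717 ± 131 TPM. Pdgfra, a receptor that marks fibroblasts, had 51.4 ± 9.91 TPM. The lowest members were Postn (12.1 ± 6.24 TPM) and the elastin gene Eln (10.2 ± 2.46 TPM). Dpt and Postn had 11.6, 7.68, 28.5 and 29.1 CPM and 19.6, 15.8, 54.2 and 45.9 CPM.

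The small leucine-rich proteoglycans bind collagen and growth factors, and 2 of them, Omd and Prelp, are the genes deleted elsewhere in the series. Prelp (ENSMUSG00000041577, chr1:133910304-133921414, minus strand, GRCm38) had 343, 304, 278 and 238 CPM, which is 258 ± 53.0 TPM. In this family of 17 genes, Dcn (1219 ± 198 TPM) and Tsku (845 ± 49.8 TPM) were above it, Bgn (266 ± 77.8 TPM) overlapped it, and Lum (129 ± 49.3 TPM) was below. Omd (ENSMUSG00000048368) had 0, 1, 8 and 12 counts, at most 0.588 CPM. In replicates 1 and 2 it was not above 3 counts, a level of 0.0648 and 0.141 CPM there, so no fold between Prelp and Omd is given. The 0 of Omd in replicate 1 carries the caution given above for that sample. Kera had 0 counts, Nyx at most 3, and Epyc 0, 0, 9 and 3. Within the family Ogn had 8.28, 7.64, 50.0 and 70.4 CPM and Lum 62.0, 65.7, 129.6 and 146 CPM, while Fmod had 54.2, 47.1, 20.1 and 17.1 CPM. Family members therefore differed between the same samples in both directions.

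Contractile genes of smooth muscle differed widely between samples. Acta2, smooth muscle actin, had 143, 134, 419 and 381 CPM and led per length with 381 ± 197 TPM, overlapping Myl9 (330.2 ± 156 TPM), a myosin light chain. The myosin heavy chain Myh11 had 117, 103, 572 and 479.6 CPM. The visceral actin Actg2 had 16.3, 14.0, 118 and 102 CPM, the intermediate filament gene Des 16.9, 20.1, 132 and 128 CPM, and calponin, Cnn1, 8.77, 8.20, 115 and 105 CPM. In each of these, replicates 3 and 4 were several times above 1 and 2, with the highest sample of Cnn1 at 14.0 times the lowest. Tpm1 (highest 1.57 times the lowest) and Flna (1.51 times), which many cell types use, differed less, and Smtn (50.2, 49.8, 47.0 and 49.2 CPM) and the transcription factor Srf (53.0, 55.9, 47.5 and 51.1 CPM) were nearly level. Myocd, the coactivator of Srf in smooth muscle, was low in all 4, at 0.910 ± 0.332 TPM.

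Receptors and channels of the detrusor were near the lower end of what was measured. P2rx1, the purinergic receptor through which ATP contracts the muscle, had 1.88, 1.73, 24.8 and 24.8 CPM. The muscarinic receptors had fewer counts still, 21, 15, 27 and 39 for Chrm2 and 2, 2, 19 and 15 for Chrm3. Kcnma1, a potassium channel, had 6.10 ± 0.594 TPM, and Adrb3, a relaxing adrenergic receptor, 2.45 ± 0.397 TPM. Cacna1c, a calcium channel subunit, had 8.02, 8.95, 7.61 and 8.14 CPM and did not follow P2rx1.

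Serum response factor binds the CArG box, so promoters of the list were searched on both strands for its strict consensus, with no base allowed to differ. Of 17 promoters matched to 16 of the 20 smooth muscle genes, 2 (11.8%) held it. The share was 1.63% of all promoters and 1.285% of those of genes with a mean of at least 1 CPM. None of the 39 urothelial, 35 stromal, 22 vessel or 37 immune promoters held it, and these are too few to tell 0 from such shares. The smooth muscle genes were Myl9 and Srf. Actg2, Myh11 and Tagln were among those without a promoter in the set and were not searched. Promoters of other lists held it too: 2 of 4 skeletal muscle promoters held it and so did 1 of 7 promoters of immediate early genes (14.3%) and 1 of 6 of nuclear long noncoding RNAs (16.7%). The Myl9 promoter is shown with its CArG box and GGGCGG (either strand) in capitals, the CArG box beginning 161 bases before the start.
Myl9, chr2:156775214-156775513, plus strand: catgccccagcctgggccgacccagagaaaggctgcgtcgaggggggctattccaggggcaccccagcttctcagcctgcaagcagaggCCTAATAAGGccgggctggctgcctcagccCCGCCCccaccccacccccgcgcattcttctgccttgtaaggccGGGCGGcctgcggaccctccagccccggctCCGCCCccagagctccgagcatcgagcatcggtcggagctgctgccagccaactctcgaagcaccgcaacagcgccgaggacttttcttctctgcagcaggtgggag
The windows of Acta2, Cnn1 and Des held no match to the strict consensus, and sites that differ from it by a base were not searched.

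Endothelial genes ran against the muscle. All 14 blood endothelial members were measured, led by Plvap (84.4 ± 31.4 TPM), of fenestrated vessels, Eng (67.7 ± 24.6 TPM), the adhesion gene Pecam1 (49.6 ± 23.8 TPM) and Cldn5 (44.7 ± 29.0 TPM), each overlapping the next. Pecam1 had 128, 133, 61.3 and 57.9 CPM and Cldn5, the endothelial claudin, 24.8, 33.6, 8.97 and 10.2 CPM. The list summed to 617, 653, 299 and 293 TPM. The pericyte list rested on Rgs5, a regulator of G-protein signalling that also occurs in other cells, with 704 ± 58.6 TPM or 82.6% of the sum, and did not follow: Rgs5 had 941, 865, 1079 and 1148 CPM. Its partners Notch3 (162, 181, 97.0 and 103 CPM) and Pdgfrb (95.2, 101, 55.5 and 55.0 CPM) did. Of the lymphatic markers, Pdpn, which other cells also make, had 167 ± 20.5 TPM, whereas the defining factor Prox1 had 22, 6, 14 and 12 counts and Lyve1 3.29 ± 0.500 TPM.

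The macrophage list summed to 521, 522, 630.1 and 630.0 CPM, higher in replicates 3 and 4. Lyz2, lysozyme, had 539, 483, 607 and 626 TPM and the complement genes C1qa, C1qb and C1qc 133 ± 5.73, 105 ± 4.79 and 70.8 ± 3.38 TPM. The receptor of the macrophage growth factor, Csf1r, was below these, and Adgre1 had 17.8 ± 0.626 TPM. MHC class II genes, which present antigen, were led by Cd74 (668 ± 57.1 TPM), followed by H2-Eb1 (292 ± 4.39 TPM). Antibody genes were uneven: Igkc had 36.7, 35.9, 73.9 and 48.9 CPM and Jchain 5.99, 5.48, 15.8 and 16.5 CPM, while the B cell genes Cd79a, Cd79b and Ms4a1 each had at most 56 counts. T and natural killer cell genes summed to 31.3 ± 1.80 TPM, from Nkg7 (6.48 ± 1.42 TPM) to Cd3e (1.32 ± 0.368 TPM). The mast cell proteases Mcpt4 and Tpsb2 passed the floor of 3 counts in replicates 1 and 2 and not in 3 and 4, with 56, 17, 2 and 2 for Mcpt4 and 36, 26, 2 and 1 for Tpsb2. The neutrophil list had the lowest sum but one, S100a8 having 0, 0, 1 and 2 counts and Ly6g none.

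Several lists were carried by a gene that other cells share. The nerve list took 94.9% of its 1127 ± 27.6 TPM from Uchl1, while Schwann cell Sox10 had 18, 11, 16 and 12 counts. The adipose list took 98.3% from Fabp4, a lipid carrier also found in small vessels, while Adipoq and Plin1 had at most 2 counts and Lep 0. The mesothelial list rested on Krt19 and Upk3b, which are also umbrella genes, while Lrrn4 had at most 9 counts and Msln and Wt1 had 0, 0, 10 and 5 counts each. Skeletal muscle actin Acta1 had 0, 14, 237 and 213 counts, Ckm 14, 0, 58 and 72, and Myh4 none. Of the 6 male accessory gland genes, Defb50 had a single count and the other 5 none. Haemoglobins were low, Hbb-bs having 140.4 ± 45.9 TPM. The defining markers of mesothelium, fat and male glands were therefore at or near 0 in all 4 samples.

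Proliferation genes were low apart from Pcna (59.9 ± 4.85 TPM) and Mcm2 (9.05 ± 1.51 TPM), replication factors also used in repair. Mki67, a marker of cycling cells, had 1.19 ± 0.154 TPM and the mitotic cyclin Ccnb1 9, 2, 1 and 4 counts. Immediate early genes, which respond to handling within minutes to hours, were led by Junb (245 ± 13.7 TPM) and Ier2 (122 ± 4.60 TPM), ahead of Fos (26.6 ± 3.01 TPM), Egr1 (3.92 ± 1.64 TPM) and Fosb (0.893 ± 0.162 TPM). Nuclear RNAs other than Xist were led by Malat1 with 463 ± 63.3 TPM and Neat1 with 64.6 ± 10.9 TPM, and Kcnq1ot1 was lowest with 0.808 ± 0.210 TPM.

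Variation between the 4 samples was expressed as the coefficient of variation (CV, SD over mean) of CPM. Its median over 14772 genes was 11.9%, of which counting error alone would give 4.03%. A CV under 10% was seen for 5985 genes (40.5%), and 340 (2.30%) were above 50%. The median was 7.66% for channels and transporters, 7.85% for urothelial transcription factors, 9.71% for umbrella and 9.99% for basal genes. Genes with a mean of at least 10 CPM had a median of 9.49%, below the medians of umbrella and basal genes. Macrophage genes had a median of 16.8%. The median was 51.7% for smooth muscle and 38.1% for blood endothelium. The most variable genes with a mean of at least 10 CPM were the Y-linked Ddx3y, Eif2s3y, Kdm5d and Uty with Xist, then P2rx1, Cnn1, Tnnt2 and Ogn, and the pseudogene Gm12896, which had 1.56, 17.2, 16.3 and 47.5 CPM. The steadiest were Arfgap2 (48.0, 47.9, 48.2 and 48.2 CPM), Rab40c, Suds3, Aars2 and Zfp740, whose CVs of 0.343% to 0.645% were below the 1.58% to 5.02% that counting error gives.

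Pairs of samples were then compared, each gene by its difference in log2 CPM with 2 prior counts. The SD of this difference was 0.25 between replicates 3 and 4 and 0.33 between 1 and 2, and lay between 0.48 and 0.55 for the other 4 pairs. For replicates 3 and 4, the most alike pair, the chi-square of the counts per gene had a median of 1.37 and a mean of 8.30. Counting error alone gives a mean near 1 and a lower median, so the typical gene also differed by more than counting error. The high mean was carried by a minority of genes. All 4 samples were counted separately. Replicate 2 differed from replicate 1 by more than 2-fold for none of 19 smooth muscle and none of 14 endothelial genes (1.94% of all 14772 genes). Replicate 4 differed from replicate 3 for none of either list (0.596% of all genes).

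Across those pairs the picture changed. Replicate 3 was above replicate 1 by more than 2-fold for 12 of 19 smooth muscle genes and below it for 7 of 14 endothelial genes, with 4.54% of all genes past 2-fold in either direction. Replicate 4 was above replicate 1 for 11 and below it for 7 (5.4% of all genes). Replicate 3 was above replicate 2 for 12 and below it for 7 (3.7% of all genes), and replicate 4 was above replicate 2 for 11 and below it for 8 (4.37% of all genes). None of 10 umbrella, 17 junction or 15 macrophage genes passed 2-fold in any of the 6 pairs. Among 9 basal genes Col17a1 alone did, in the 4 pairs that cross. At these shares of all genes, lists of that size hold few such genes or none in any case. Other lists held some between replicates 2 and 4: 5 of 13 small leucine-rich proteoglycans, 3 of 8 nerve, 3 of 7 detrusor, 3 of 20 fibroblast and 2 of 5 B and plasma cell genes. Urothelial transcription factors, channels and pericyte genes held none there. These lists were chosen with the samples known, and the samples are few, so the counts describe these 4 libraries.

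**Figure D4:**
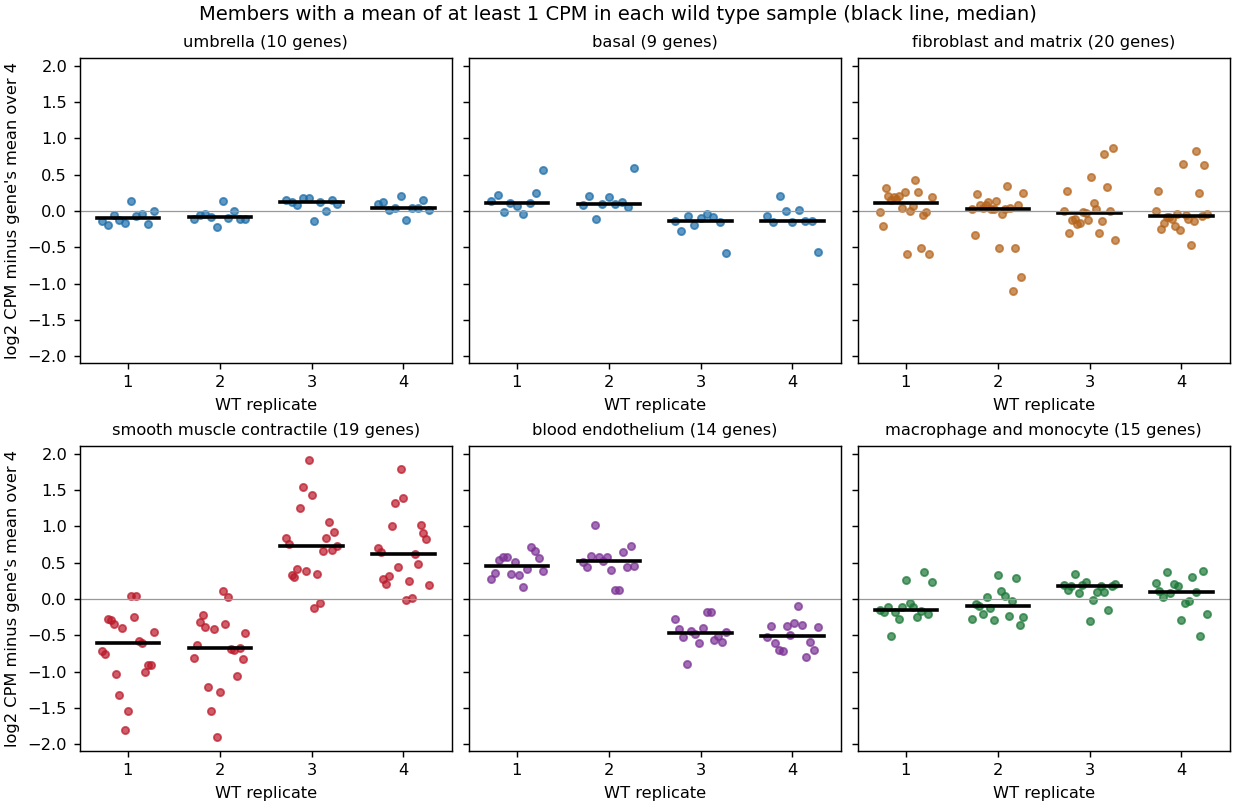
Each point is a gene with a mean of at least 1 CPM, drawn as its log2 CPM in a sample minus its mean over the 4 WT samples. Panels are lists and black lines medians. Umbrella genes stay close to their mean, whereas smooth muscle genes lie lower and endothelial genes higher in replicates 1 and 2.

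Protein-coding genes held 96.8% ± 0.702 of the counts (SD, n = 4). The ribosomal RNA gene CT010467.1 alone had 7838, 14083, 19718 and 13492 CPM although polyadenylated RNA was selected. Gm42418 shares 97.0% of its 25-base stretches with it, and 73.9% of the exon length of CT010467.1 lies under another gene. Gm23935, a gene of 57 bases, and Mir6236, one of 123 bases, were among the 4 highest per length with 38301 ± 22547 and 12741 ± 7581 TPM. The mature product of Mir6236 is listed by RefSeq at chr9:110281353-110281371 on the plus strand (GRCm38.p6), shown with its seed, bases 2 to 8, in capitals.
miR-6236: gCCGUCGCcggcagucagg
Counts over such short genes in libraries of long RNA do not measure the mature product. Lars2, a mitochondrial tRNA synthetase, had 1139, 1741, 4735 and 3416 CPM, and Gm15564, which shares 28 stretches of 25 bases with it, 199, 327, 872 and 522 CPM. Gm23935 had 193, 480.4, 1086 and 1055 CPM and Mir6236 had 153, 316, 787 and 766 CPM. These genes, and CT010467.1, were all lowest in replicate 1. Gstm2-ps1, a pseudogene with 3638 ± 234 TPM, shares 61.1% of its 25-base stretches with Gstm1, so how reads split between them is uncertain. The pseudogenes Gm9794 and Gm8834 had 388 ± 34.9 and 344 ± 14.7 CPM. The 37 mitochondrial genes had 0 counts in all 4 samples, which is not read as absence of their RNA. The totals behind CPM and TPM thus hold no mitochondrial counts, and the reason was not tested.

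Overlapping genes set a limit on these levels. Of 20266 protein-coding genes with no overlap on their own strand, 35 lie wholly under exons of the other strand, and all 35 had 0 counts in all 4 samples. With no such overlap 26.05% of 15469 genes were at 0, and with more than 90% to under 100% overlap 15 of 21 were (71.4%). Between these the share at 0 was not higher throughout: with more than 50% to 75% overlap, 13.1% of 107 genes were at 0 and 57.0% reached 1 CPM, against 54.6% with no overlap. Among list members, Tagln, a marker of smooth muscle, has 67.9% of its exon length under the other strand and only 72, 39, 96 and 112 counts. Pln has 64.7% there with 41, 14, 9 and 13 counts, and Itgam 68.7% under a gene on its own strand with 185, 61, 81 and 60 counts. Mzb1, Epyc and Shh are the other members above 25%. Levels of these 6 genes are uncertain for that reason.

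**Figure D5:**
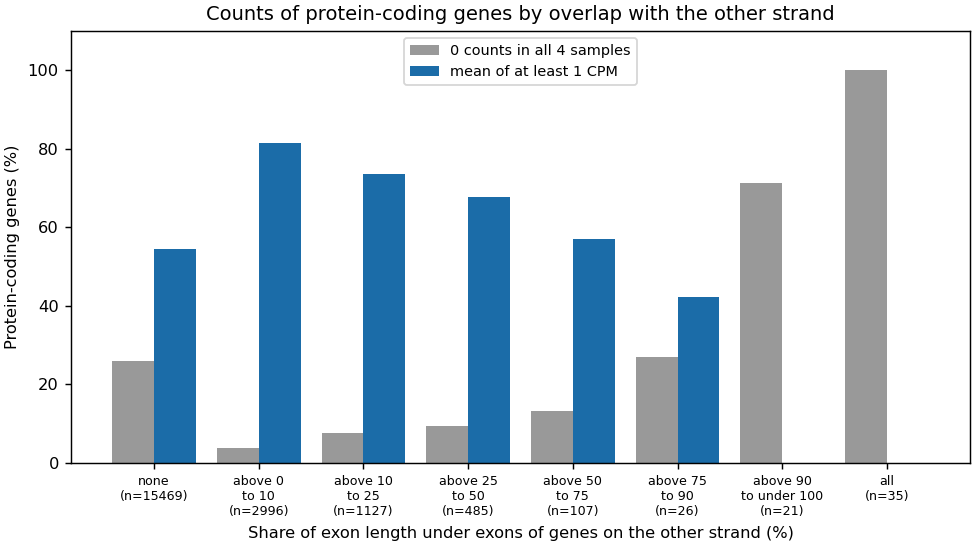
Share of protein-coding genes (vertical axis, %) with 0 counts in all 4 WT samples (grey) and with a mean of at least 1 CPM (blue), by the share of exon length under exons of the other strand. At full overlap all 35 genes had 0 counts and none reached 1 CPM.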

How the data were processed

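RNA from 4 WT bladder samples was read as the raw counts per gene that the authors deposited, 1 file per sample. The file headers name HISAT2, whereas the submitters' processing notes name bcl2fastq, STAR 2.5.2b, featureCounts and DESeq2, with builds GRCm38 and hg38. Whether molecular identifiers collapsed duplicates and whether strand was used in counting are not given in the sources used here. Tables of the authors' comparisons and the knockout samples were not used.

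Counts were scaled to CPM, and per kb of merged exon (GENCODE vM21, 55536 of 55536 identifiers matched) to TPM. Python 3.11.15, numpy 2.4.6, pandas 2.3.3, scipy 1.17.1, matplotlib 3.10.9, bedtools 2.31.1, R 4.3.3, edgeR 4.0.16 and DESeq2 1.42.0 were used, the last 2 for scaling only. A count of 3 per sample was the floor. Log2 CPM used 2 prior counts. Scripts were tested on simulated data. With 1 group no test between groups was made. Counting error limits precision to a median of 4.03% of the mean per gene and does not cover other error.

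Named genes were the 20 highest by CPM and by TPM, the 10 most and 5 least variable, the 10 highest outside protein coding, Omd, Prelp, and in each list mainly the 4 highest, the lowest 2 and those at or under the floor. Further members and the gene families were chosen after their values were seen. Members and lists were chosen with earlier results of these data known. Not all members at the floor are described singly: those at 0 in all 4 samples were Krt17, Kera, Ly6g, Lep, Myh4, Svs2, Svs4, Svs5, Pate4 and Pbsn. Values of some list members are not reported here.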

Additional observations from a re-analysis of the deposited data

Results flagged for a closer look

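Of 288 quantities, 8 had a sample that stood apart by Dixon's criterion for 4 samples, which chance alone also gives for some. Replicates 1, 2 and 3 stood apart in 3, 3 and 2 of them and replicate 4 in 0. Replicate 1 had the highest total count (gap over range 0.963) and the highest Mcm2 CPM (0.915), and the lowest Junb CPM (0.836). Replicate 2 had the lowest Nkg7 CPM (0.938), the lowest Pcna CPM (0.947) and the highest Suds3 CPM (0.892), the last within a spread below counting error. Replicate 3 had the lowest Gstm2-ps1 CPM (0.872) and the only count of the male accessory gland list (1). The cause was not tested, and 20 genes with a mean of at most 10 counts were not examined.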

How the results depend on the processing

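Of 432 alternative values, 90 moved past a limit. The limit was the SD between samples for list sums, the muscle ratio, Prelp and Omd, and a fixed factor for numbers of genes. It was the SD over values with each replicate left out for the median CV, and the SD over pairs for their likeness. Of the 90, 23 came under summed CPM, which is a change of unit. All 432 are positive quantities, so none could change sign. Leaving out the mitochondrial genes, at 0 counts, could move none. Nor could leaving out 1 replicate move a list sum, the muscle ratio, Prelp or Omd. A mean of 4 values then shifts by less than their SD, which was the limit. The muscle ratio is taken within a sample, so TMM, DESeq2 or leaving out rRNA and short genes could not change it. The number of values that stayed is therefore no measure of stability. TMM or DESeq2 scaling moved none, but changed the spread between samples. The SD of the umbrella sum was 2233 under TMM and 2157 under DESeq2, against 585 TPM. That of fibroblast and matrix genes was 278 and 299, against 776 TPM. Under summed CPM 21 of 28 lists changed place and fibroblast and matrix genes came first. With the longest transcript as length, the summed TPM was 23606 for umbrella, 4099 for basal and 969.8 for macrophage genes. Summed as CPM, umbrella, basal, fibroblast and macrophage genes gave 15393, 3843, 15487 and 576, and smooth muscle was 16.4% of umbrella. Without the highest member the same 4 lists gave 21596, 2177, 6164 and 596 TPM. Of the alternatives chosen after seeing the data, unshared exon length gave 26799 (umbrella) and 1077.5 TPM (macrophage), and leaving out rRNA and short genes 31314 and 1254 TPM. The median CV was 9.49% for genes of at least 10 CPM and 33.7% for every gene with a count, and 10.95 to 11.99% with each replicate left out. The median SD between pairs of samples was 0.37 and 0.75 (log2) in the same 2 sets. Replicates 3 and 4 were the most alike pair under every setting tried. The cause of the moves was not tested. No paired analysis was possible because 1 group was used and no comparison between groups was made. Depth limits genes under 3 counts, 0.0648 CPM in replicate 1 and 0.141 to 0.147 CPM in the others. In replicate 1 few genes were at 1 count (709 against 2454, 2965 and 3324 in replicates 2 to 4). The value of 0.0648 CPM may therefore not be the true limit of that sample, and the reason was not tested.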
